A study of Mus musculus with 3 samples.

Results

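The genes described here are 44 components of the glutathione, thioredoxin and NRF2 antioxidant system, chosen by symbol from a deposited table of 24401 loci. They comprise the sensor pair Nfe2l2 and Keap1, the enzymes that make and recycle glutathione, glutathione peroxidases and transferases, peroxiredoxins, superoxide dismutases with catalase, thioredoxins with their reductases, and enzymes that supply NADPH or reduce biliverdin. Each of the 44 symbols was found, at 1 locus each. Of these, 42 had a mean of 1 FPKM or more over the libraries and entered the ratios, while Gpx7 and Gstk1 did not. FPKM scales fragment numbers by transcript length and library size, so levels can be compared between genes. The lowest gene kept was Gstt1, with a mean of 5.16 FPKM, and the highest left out was Gstk1, with a mean of 0.0709 FPKM.

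RNA was sequenced from C2C12 myotubes, the multinucleated fibres that a clonal mouse myoblast line forms in a dish. All 3 cultures first spent 72 hours in a differentiation medium (DMEM, 1 µg/ml insulin, 2% horse serum) and then 24 hours in their own medium. The first group, conditioned media with resveratrol, received 50 µM of this plant polyphenol in medium taken from S2-013 cells, which derive from a human pancreatic tumour. The conditioned media group received that medium alone, and the control group DMEM. Each group held 1 library of 1 cell line, so no value below has an SD, and no difference has a test of its own or a replicate check. A control with resveratrol was not analysed here. Neither the serum of the control DMEM nor the solvent of resveratrol is stated, so effects of either cannot be told apart from those of the media or the compound. In bulk RNA, fewer cells of a type and less RNA per cell cannot be told apart.

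NRF2, encoded by Nfe2l2, is a transcription factor that KEAP1 holds in the cytoplasm and directs to degradation until oxidants or electrophiles modify KEAP1. Free NRF2 pairs with small MAF proteins at antioxidant response elements and switches on genes for glutathione synthesis, thioredoxin reduction, conjugation of electrophiles and NADPH supply. Glutathione and thioredoxin are parallel reducing systems, both fed by NADPH, that serve the peroxidases which remove hydrogen peroxide and lipid peroxides. Contracting muscle is a steady source of superoxide and depends on these systems. The sequenced RNA reports transcript levels only, and NRF2 is known to be regulated largely at the protein level.

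The antioxidant genes spanned a wide range of levels. Prdx2, a cytosolic peroxiredoxin, had the highest mean at 364 FPKM. It was followed by the lipid peroxide reductase Gpx4 at 312 FPKM, thioredoxin Txn1 at 311 FPKM, Prdx1 at 308 FPKM and Prdx5 at 305 FPKM. Together with Sod1, these genes made up 52.9% of the summed mean FPKM of the 42 genes. At the other end stood Glrx2, Txnrd3, Txnrd2 and Gstt1, with means between 5.16 and 6.29 FPKM. The summed FPKM of the 42 genes was 4001 in conditioned media with resveratrol, 3291 in conditioned media and 3083 in control.

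**Figure D1:**
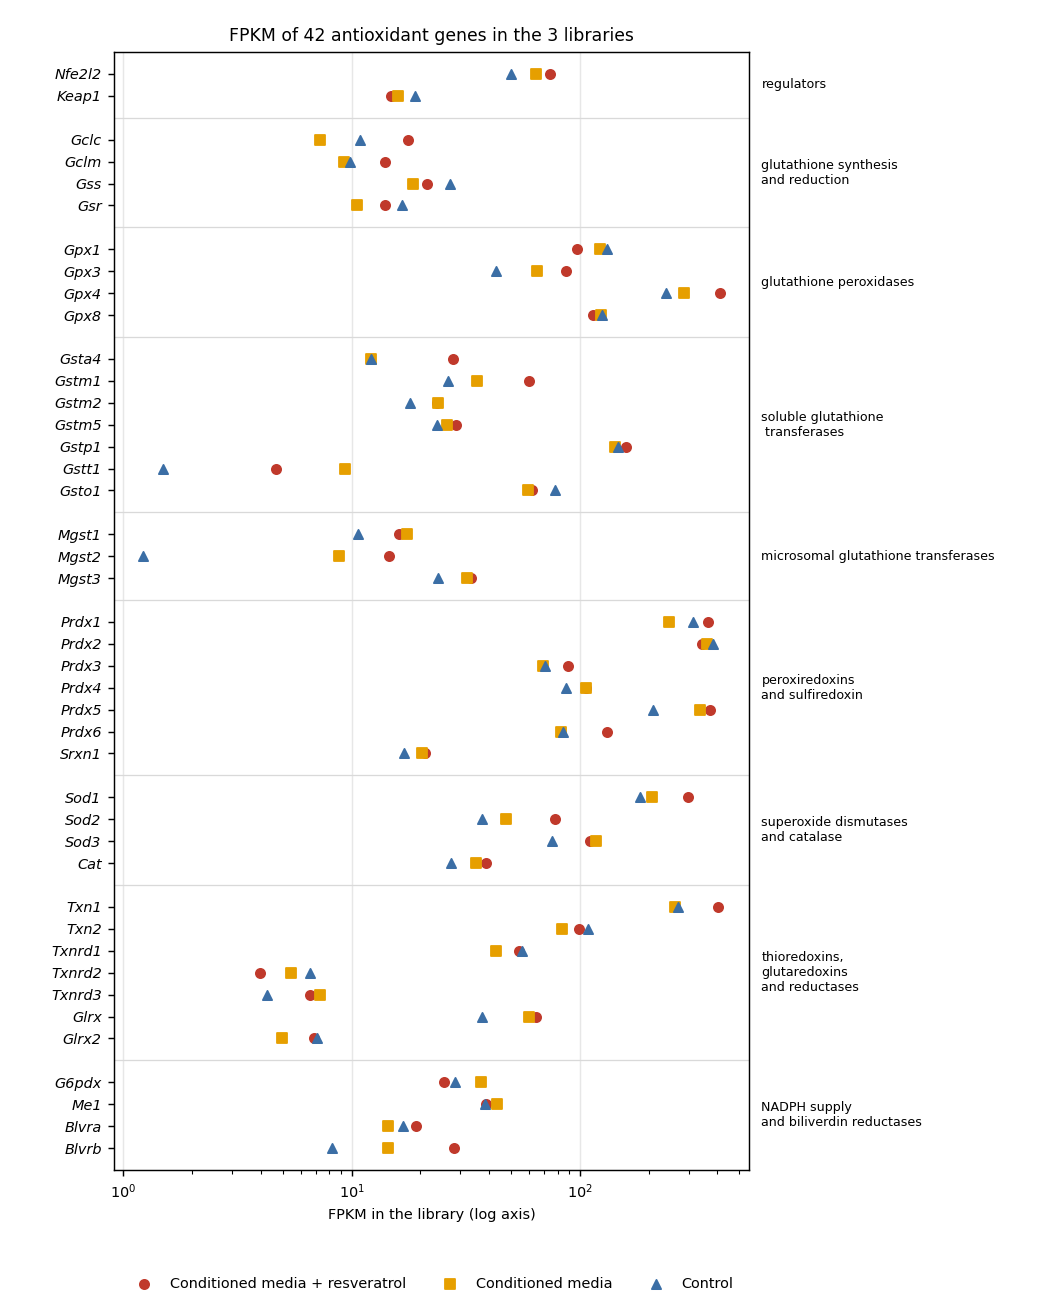
FPKM of the 42 genes kept, on a log axis, with 1 point for each library and genes grouped by role. Mgst2 and Gstt1 show the widest gaps, with control far to the left at 1.22 and 1.49 FPKM, while Prdx2 and Gpx8 lie nearly on top of each other.

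Differences are given as log2 ratios of FPKM + 1, a scale that understates the change of low genes. A gene passed the size rule when this ratio was 1 or more, or -1 or less, called 2-fold below. A second rule of 1.5-fold is given beside it. Both rules are on this scale, so a low gene can differ 2-fold in FPKM and still fall short. In conditioned media over control, 2 of 42 genes (4.76%) were 2-fold higher, against 1.98% of all 11858 loci with a mean of 1 FPKM or more, and 0 were 2-fold lower, against 0.751% of all loci. By the 1.5-fold rule, 9 genes (21.4%) were higher, against 7.43% of all loci, and 1 gene, Gsr, was lower, against 4.92%. Of the 42 ratios, 22 (52.4%) were above 0, against 48.7% of all loci, so the direction was divided. The median was 0.15, beside -0.011 for all loci.

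In conditioned media with resveratrol over conditioned media, 2 of 42 genes (4.76%) were 2-fold higher, against 1.53% of all loci, and 0 were 2-fold lower, against 4.97%. The 1.5-fold rule found 8 genes (19.0%) higher, against 7.59% of all loci, and 1 gene, Gstt1, lower, against 12.6%. Above 0 lay 30 of 42 ratios (71.4%), against 52.5% of all loci, with a median of 0.18 beside 0.025. In conditioned media with resveratrol over control, 7 genes (16.7%) were 2-fold higher, against 3.60% of all loci, and 0 lower, against 5.25%. There, 14 genes (33.3%) were 1.5-fold higher, against 11.4%, and 1 gene, Txnrd2, was 1.5-fold lower, against 14.0%. Its median was 0.41, beside 0.00021 for all loci, and 30 of 42 ratios (71.4%) were above 0, against 50.0%. These comparisons share libraries and are not independent of each other.

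Cuffdiff's calls in the authors' deposited table compare these libraries, not the conditions, and were frequent across the whole table. For conditioned media over control, the authors' deposited table calls 20 of 42 genes higher and 10 lower, against 25.8% and 29.9% of the tested loci. For resveratrol in conditioned media over conditioned media, the authors' deposited table calls 24 genes higher and 7 lower, against 34.1% and 29.5%. For conditioned media with resveratrol over control, the authors' deposited table calls 26 genes higher and 10 lower, against 34.1% each. TPM values were smaller than FPKM here and the same 1 was added, so TPM also shrinks the ratios of low genes. Before the 1 is added, rescaling raises ratios over control by 0.196 for conditioned media and 0.195 for conditioned media with resveratrol. Under TPM, the median over all loci shifted to 0.14 in both comparisons over control. With that scaling 31 of 42 ratios of conditioned media over control were above 0, and 28 relative to that moved median. The genes that changed sign under TPM there were Gclm, Gpx1, Gpx8, Gsta4, Gstp1, Prdx2, Prdx3, Prdx6 and Txn1, with FPKM ratios between -0.10 and -0.0044. In conditioned media with resveratrol over control, Gpx8, Prdx2, Txn2, Txnrd1, Glrx2 and G6pdx turned above 0, but relative to the moved median none changed sign, and 30 of 42 ratios lay above it. There, all 7 genes past 2-fold but Gstt1, at 0.84, kept that call, while Prdx5 gained it at 1.01. The ratio of Gstt1 fell because the 1 was added to smaller values, not through the rescaling itself.

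**Figure D2:**
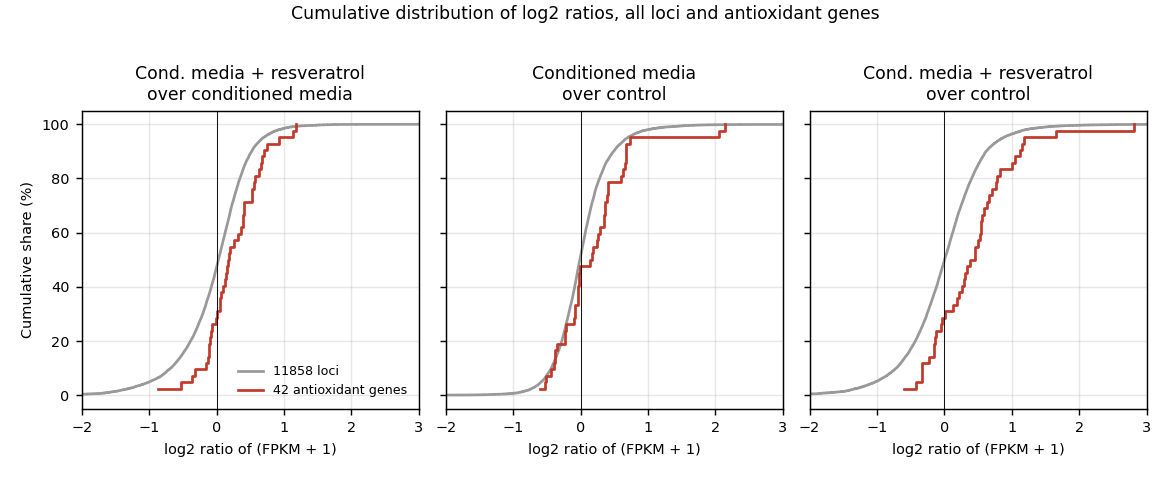
Cumulative share of log2 ratios for all 11858 loci (grey) and the 42 antioxidant genes (red) in the 3 comparisons, drawn from -2 to 3. The median of the red curve is 0.18 in resveratrol over conditioned media, 0.15 in conditioned media over control and 0.41 in conditioned media with resveratrol over control, beside 0.025, -0.011 and 0.00021 for the grey curve.

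Across the libraries, 24 of 42 genes had their highest value in conditioned media with resveratrol, 7 in conditioned media and 11 in control, against 39.7%, 26.1% and 34.2% of all loci. Of the 42, 15 genes (35.7%) were higher in conditioned media and higher again with resveratrol, a pattern held by 22.6% of all loci. They included Nfe2l2, Gpx3, Gpx4, Gstm1, Mgst2, Prdx5, Sod1, Sod2, Cat and Blvrb. Another 15 genes (35.7%) were lower in conditioned media and higher with resveratrol, against 29.9% of all loci, among them Gclc, Gclm, Gss, Gsr, Prdx1, Txn1, Txn2 and Txnrd1. Higher in conditioned media and lower with resveratrol were 7 genes (16.7%), against 26.1% of all loci, and 5 genes (11.9%) were lower in both steps, against 21.3%. These classes rest on signs, and near 0 the sign depends on the scaling. Under TPM, relative to the median of all loci, Gpx8, Gsta4, Gstp1, Prdx3, Prdx6 and Txn1 turned above 0 in conditioned media over control. Prdx4 turned below 0 in resveratrol over conditioned media.

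Positions of 9 genes, Gpx4, Gpx8, Gstm5, Prdx1, Sod1, Txnrd1, Txnrd2, G6pdx and Me1, are shared with other loci, and Prdx2 and Sod1 share 23.8% and 23.1% of their 50-base words with other genes, so their levels are uncertain.

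In all, 8 genes passed the 2-fold rule in at least 1 comparison, and none of their positions is shared with another locus. Mgst2, a microsomal glutathione transferase of the family that also makes leukotrienes, lies on chromosome 3, positions 51661193 to 51682675 of mm10. It stood at 14.5 FPKM in conditioned media with resveratrol, 8.79 FPKM in conditioned media and 1.22 FPKM in control. Both conditioned media libraries were therefore high and control was low, and the log2 ratio of conditioned media over control was 2.14. Only 20 of 11858 loci had a larger ratio in that comparison, and 10 in resveratrol over control, where Mgst2 had 2.81. The size of its ratio depends on the scale: for conditioned media over control it was 2.75 with a pseudocount of 0.1, 1.15 with one of 5 and 1.55 under TPM, and for conditioned media with resveratrol over control 3.47, 1.65 and 2.12. The authors' deposited table gives Mgst2 q-values of 0.0462 for conditioned media over control and 0.0324 for conditioned media with resveratrol over control, beside 0.00973 for resveratrol over conditioned media.

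Gstt1, the theta class glutathione transferase (chromosome 10, positions 75783813 to 75798584), was at 4.65 FPKM in conditioned media with resveratrol, 9.35 FPKM in conditioned media and 1.49 FPKM in control. It was the gene with the lowest ratio of resveratrol in conditioned media over conditioned media, -0.87, although its ratio of conditioned media over control was 2.05. That ratio was 2.57 with a pseudocount of 0.1, 1.14 with one of 5 and 1.53 under TPM. Blvrb, biliverdin reductase B, which also reduces flavins (chromosome 7, positions 27447978 to 27465981), was at 28.1 FPKM in conditioned media with resveratrol, 14.4 FPKM in conditioned media and 8.25 FPKM in control. Its steps were of like size, with log2 ratios of 0.92 for resveratrol in conditioned media over conditioned media and 0.73 for conditioned media over control. Blvrb passed 2-fold only in conditioned media with resveratrol over control, at 1.65.

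Gclc encodes the catalytic subunit of glutamate-cysteine ligase, the rate-limiting enzyme of glutathione synthesis (chromosome 9, positions 77754535 to 77794489). It was at 17.7 FPKM in conditioned media with resveratrol, 7.28 FPKM in conditioned media and 10.9 FPKM in control, so that conditioned media was the lowest library. Gclc had the largest ratio of resveratrol in conditioned media over conditioned media among the 42 genes, 1.18, exceeded by 91 of 11858 loci. Gsta4, the alpha class transferase that conjugates the lipid peroxidation product hydroxynonenal (chromosome 9, positions 78191966 to 78209349), was at 27.8 FPKM in conditioned media with resveratrol, 12.2 FPKM in conditioned media and 12.2 FPKM in control. Only the resveratrol library stood out, with a log2 ratio of 1.13 over conditioned media. With a pseudocount of 5, neither gene passed 2-fold in this comparison, at 0.89 for Gclc and 0.93 for Gsta4, and there and under TPM the ratio of Gsta4 was the larger.

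Like Blvrb, the other 3 genes passed the rule only in conditioned media with resveratrol over control, and each was at an intermediate level in conditioned media. Gstt1 and Gsta4 passed it in that comparison as well, at log2 ratios of 1.18 and 1.12. Gstm1, a mu class transferase (chromosome 3, positions 108012250 to 108017973), was at 59.7 FPKM in conditioned media with resveratrol, 35.3 FPKM in conditioned media and 26.4 FPKM in control. Sod2, the mitochondrial manganese superoxide dismutase (chromosome 17, positions 13007803 to 13036990), was at 77.9 FPKM with resveratrol, 47.6 FPKM in conditioned media and 37.2 FPKM in control. Gpx3, the secreted glutathione peroxidase (chromosome 11, positions 54902854 to 54910382), was at 86.9 FPKM with resveratrol, 65.1 FPKM in conditioned media and 42.7 FPKM in control. Their log2 ratios of conditioned media with resveratrol over control were 1.15, 1.05 and 1.01, the last 2 close to the limit of the rule. With a pseudocount of 5, Sod2 at 0.97 and Gpx3 at 0.95 fell short of it. Gstm1 shares 23.1% of the 50-base words of its longest coding transcript with other genes, most with the pseudogene Gstm2-ps1, so its level is uncertain.

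**Figure D3:**
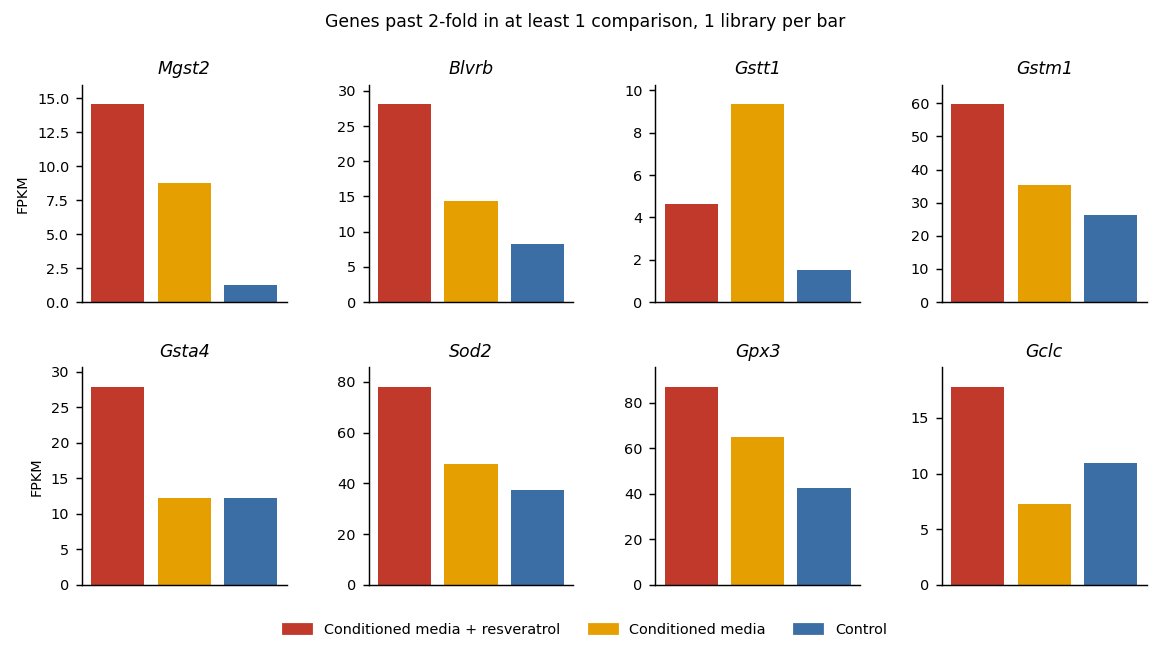
FPKM of the 8 genes past 2-fold in at least 1 comparison, with 1 bar for each library and axes from 0. Gstt1 was highest in conditioned media (9.35 FPKM), and all the others were highest with resveratrol. Gclc was lowest in conditioned media (7.28 FPKM), and Gsta4 was nearly level there and in control (12.19 and 12.23 FPKM).

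Because these genes include textbook NRF2 targets, promoter windows were searched for the core of the antioxidant response element, TGACNNNGC, on both strands. Each window, from RefSeq on GRCm38.p6, the same assembly as mm10, covers the 250 bases before a gene's start and the 50 after it. Windows were found for 39 of the 44 genes, leaving Gclc, Gsr, Gsta4, Prdx6 and Sod3 unsearched, and 11 of the 39 genes (28.2%) had a match, against 14.0% of 27025 genes with a window. Counted per window, it was 11 of 52 (21.2%), against 12.4% of 32851 windows. The matches lay at Nfe2l2, Gclm, Gstm5, Mgst1, Prdx1, Srxn1, Sod1, Txnrd1, G6pdx, Me1 and Blvra. Of these matches, 2 (18.2%), at Prdx1 and Me1, also hold TGACTCA, the AP-1 motif, against 3.66% of the matching windows of all genes. A match is a description of letters and not a mapped binding site. A window without a match says nothing of sequence outside it, which was not searched.

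Windows are shown for genes whose levels differed between the libraries in contrasting ways. Prdx1 and Gclm have a match and were higher with resveratrol than in conditioned media, G6pdx and Me1 have a match and were lower, and Mgst2 and Gstt1, with the largest ratios of conditioned media over control, have none. The windows lie at chr4:116685349-116685648, plus strand for Prdx1, chr3:122245307-122245606, plus strand for Gclm and chrX:74428831-74429130, minus strand for G6pdx. Those of Me1, Mgst2 and Gstt1 lie at chr9:86695865-86696164, minus strand, chr3:51660929-51661228, plus strand, and chr10:75797682-75797981, minus strand. Each runs 5′ to 3′ on the gene's strand, and capitals mark the match, which at Prdx1, Gclm and G6pdx is on the opposite strand and appears as its reverse complement.
Prdx1: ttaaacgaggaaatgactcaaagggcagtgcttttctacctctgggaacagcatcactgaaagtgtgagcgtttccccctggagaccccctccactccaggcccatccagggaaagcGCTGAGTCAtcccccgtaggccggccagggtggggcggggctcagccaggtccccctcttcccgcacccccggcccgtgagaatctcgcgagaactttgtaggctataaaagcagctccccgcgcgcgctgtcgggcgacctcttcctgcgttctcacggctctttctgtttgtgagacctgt
Gclm: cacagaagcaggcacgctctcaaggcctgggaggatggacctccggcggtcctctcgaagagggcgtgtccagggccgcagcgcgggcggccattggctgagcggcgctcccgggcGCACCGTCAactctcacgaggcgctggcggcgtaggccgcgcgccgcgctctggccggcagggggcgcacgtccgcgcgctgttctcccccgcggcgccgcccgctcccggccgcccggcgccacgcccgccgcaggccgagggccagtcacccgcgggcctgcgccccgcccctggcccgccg
G6pdx: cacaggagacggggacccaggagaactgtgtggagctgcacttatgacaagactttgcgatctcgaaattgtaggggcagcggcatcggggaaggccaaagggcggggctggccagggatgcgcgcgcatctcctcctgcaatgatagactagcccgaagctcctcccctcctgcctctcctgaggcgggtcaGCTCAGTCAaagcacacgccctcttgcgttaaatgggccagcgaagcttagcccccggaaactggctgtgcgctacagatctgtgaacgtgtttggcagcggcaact
Me1: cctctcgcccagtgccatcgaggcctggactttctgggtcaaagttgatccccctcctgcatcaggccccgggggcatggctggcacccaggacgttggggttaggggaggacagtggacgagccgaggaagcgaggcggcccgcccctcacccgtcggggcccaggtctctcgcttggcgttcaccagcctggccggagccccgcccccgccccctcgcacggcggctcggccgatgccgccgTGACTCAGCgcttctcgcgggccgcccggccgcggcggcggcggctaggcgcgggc
Mgst2: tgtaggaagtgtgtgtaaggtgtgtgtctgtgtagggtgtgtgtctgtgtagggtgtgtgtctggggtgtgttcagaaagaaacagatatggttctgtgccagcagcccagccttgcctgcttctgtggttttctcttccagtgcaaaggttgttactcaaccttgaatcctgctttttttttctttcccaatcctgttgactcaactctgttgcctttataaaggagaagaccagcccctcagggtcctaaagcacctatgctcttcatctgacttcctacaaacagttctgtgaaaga
Gstt1: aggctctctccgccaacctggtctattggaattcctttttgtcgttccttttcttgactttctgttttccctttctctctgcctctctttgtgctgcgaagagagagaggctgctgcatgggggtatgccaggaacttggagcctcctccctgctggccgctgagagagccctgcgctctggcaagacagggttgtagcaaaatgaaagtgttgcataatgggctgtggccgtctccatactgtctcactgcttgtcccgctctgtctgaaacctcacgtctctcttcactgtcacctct
The Prdx1 match spans bases -133 to -125 from the start site, that of Gclm -134 to -126 and that of G6pdx -57 to -49, while that of Me1 spans the start site itself, from -6 to 3. The 11 genes with a match had a median log2 ratio of 0.19 for resveratrol in conditioned media over conditioned media, with 8 above 0, and the 26 kept genes with a window and no match had 0.15, with 18 above 0. For conditioned media over control the medians were 0.17 with a match and 0.28 without. For conditioned media with resveratrol over control they were 0.27 with a match and 0.41 without. There, 9 of 11 and 17 of 26 ratios were above 0, and 0 and 6 genes were 2-fold higher.

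The regulators lay in opposite directions. Nfe2l2 was at 74.0 FPKM in conditioned media with resveratrol, 64.6 FPKM in conditioned media and 49.7 FPKM in control. Keap1, the adaptor that directs NRF2 to degradation, was at 14.8 FPKM with resveratrol, 15.9 FPKM in conditioned media and 18.9 FPKM in control. Thus Nfe2l2 was lowest and Keap1 highest in control, with log2 ratios of conditioned media with resveratrol over control of 0.56 and -0.33, neither past 1.5-fold. Under TPM the ratio of Nfe2l2 was 0.73, past 1.5-fold. Nfe2l2 holds a small RNA gene, and Keap1 shares 10.4% of its 50-base words with an antisense gene.

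Genes of glutathione synthesis and reduction were lower in conditioned media and higher with resveratrol, a pattern held by 29.9% of all loci. Both ratios use the same conditioned media library. All 4 had ratios below 0 in conditioned media over control, with a median of -0.52. Under TPM that of Gclm was 0.075, and -0.062 relative to the median of all loci, where all 4 stayed below 0. All 4 had ratios above 0 in resveratrol over conditioned media, with a median of 0.47. Gclm, the modifier subunit of the ligase, was at 14.0 FPKM in conditioned media with resveratrol, 9.25 FPKM in conditioned media and 9.89 FPKM in control. The authors' deposited table does not call Gclm in conditioned media over control. Gss, glutathione synthetase, was at 21.3 FPKM with resveratrol, 18.6 FPKM in conditioned media and 27.0 FPKM in control. Gsr, the NADPH-dependent reductase that returns oxidised glutathione to its reduced form, was at 14.1 FPKM with resveratrol, 10.5 FPKM in conditioned media and 16.6 FPKM in control. For Gss and Gsr the resveratrol library lay between conditioned media and control, whereas for Gclc and Gclm it lay above both. The log2 ratio of Gsr in conditioned media over control, -0.61, was the lowest of the 42 genes, and 4.36% of all loci lay below it. Gss overlaps genes on the opposite strand and Gsr holds a small RNA gene.

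The glutathione peroxidases divided by member. Gpx4, which reduces phospholipid hydroperoxides and guards against ferroptosis, was at 411 FPKM in conditioned media with resveratrol, 286 FPKM in conditioned media and 239 FPKM in control. Gpx1, the cytosolic enzyme, was lowest with resveratrol, at 97.2 FPKM with resveratrol, 122 FPKM in conditioned media and 131 FPKM in control. Gpx8, of the endoplasmic reticulum, varied little, at 114 FPKM with resveratrol, 123 FPKM in conditioned media and 126 FPKM in control. Under TPM, relative to the median of all loci, the ratio of conditioned media over control was -0.045 for Gpx1 and turned above 0, at 0.027, for Gpx8. Gpx7, of the same compartment, was listed at 0 with resveratrol, 0.117 FPKM in conditioned media and 0.0529 FPKM in control. The level of Gpx4 is uncertain, since its position is given to 48 loci and it shares 61.7% of its 50-base words with the pseudogene Gpx4-ps2.

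Among the soluble glutathione transferases, the remaining members differed less than Gstt1, Gsta4 and Gstm1. Gstm2 was at 23.7 FPKM in conditioned media with resveratrol, 23.9 FPKM in conditioned media and 18.0 FPKM in control. Gstm5 was at 28.8 FPKM with resveratrol, 26.3 FPKM in conditioned media and 23.8 FPKM in control. These mu class genes were thus lowest in control, as was Gstm1. Gstp1, the pi class enzyme and the most abundant transferase, was at 160.0 FPKM with resveratrol, 143 FPKM in conditioned media and 147 FPKM in control, but shares 62.3% of its 50-base words with its copy Gstp2. Gsto1, the omega class enzyme, was highest in control, at 61.7 FPKM with resveratrol, 59.0 FPKM in conditioned media and 77.9 FPKM in control. The mitochondrial Gstk1 was at 0.213 FPKM with resveratrol and listed at 0 in the other libraries.

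All 3 microsomal transferases, membrane proteins that conjugate and reduce lipid peroxides, were higher in both conditioned media libraries than in control, also under TPM. Mgst1 was at 16.1 FPKM in conditioned media with resveratrol, 17.6 FPKM in conditioned media and 10.7 FPKM in control. Mgst3 was at 33.2 FPKM with resveratrol, 32.1 FPKM in conditioned media and 24.0 FPKM in control. Of the 3, only Mgst2 had a ratio past 1.5-fold with resveratrol over conditioned media, 0.67, while Mgst1 had -0.12 and Mgst3 had 0.049. Summed over the 3 genes, the level was 63.9 FPKM with resveratrol, 58.4 FPKM in conditioned media and 35.9 FPKM in control.

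Peroxiredoxins, which reduce peroxides with electrons from thioredoxin, split between members with their larger step in conditioned media and members with their larger step in resveratrol. Prdx5, found in mitochondria, peroxisomes and cytosol, was at 372 FPKM in conditioned media with resveratrol, 335 FPKM in conditioned media and 209 FPKM in control. It shares 29.7% of its 50-base words with Trmt112 on the opposite strand. Prdx4, of the endoplasmic reticulum, was at 107 FPKM with resveratrol, 106 FPKM in conditioned media and 86.9 FPKM in control. For both, the main step was between control and conditioned media, with log2 ratios of 0.68 and 0.29.

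Prdx6, which has a single active cysteine and relies on glutathione, was at 131 FPKM in conditioned media with resveratrol, 82.7 FPKM in conditioned media and 84.4 FPKM in control. Prdx1, whose promoter window is printed above, was at 365 FPKM with resveratrol, 245 FPKM in conditioned media and 314 FPKM in control. Prdx3, the mitochondrial member, was at 89.1 FPKM with resveratrol, 68.95 FPKM in conditioned media and 70.6 FPKM in control. These 3 were highest with resveratrol, with log2 ratios over conditioned media of 0.66 for Prdx6, 0.57 for Prdx1 and 0.37 for Prdx3. Their ratios of conditioned media over control were below 0, but under TPM those of Prdx6 and Prdx3 turned above it, also relative to the median of all loci. Prdx2 was lower in each step, at 344 FPKM with resveratrol, 362 FPKM in conditioned media and 384 FPKM in control, and its ratios over control stayed below 0 under TPM relative to the median of all loci. Srxn1, the sulfiredoxin that repairs overoxidised peroxiredoxins and a textbook NRF2 target, was at 21.0 FPKM with resveratrol, 20.3 FPKM in conditioned media and 16.9 FPKM in control, a log2 ratio of only 0.048 for resveratrol over conditioned media.

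The superoxide dismutases and catalase were all higher in conditioned media than in control, also under TPM, with a median of 0.35 over the 4 genes. Their summed level was 526 FPKM in conditioned media with resveratrol, 407 FPKM in conditioned media and 323 FPKM in control. Sod1, the cytosolic copper and zinc enzyme, was at 299 FPKM with resveratrol, 207 FPKM in conditioned media and 183 FPKM in control. Like Sod2, it had its larger step with resveratrol, at log2 ratios of 0.53 for Sod1 and 0.70 for Sod2, against 0.18 and 0.35 in conditioned media over control. Sod3, the secreted enzyme, had its step in conditioned media instead, at 111 FPKM with resveratrol, 117 FPKM in conditioned media and 75.6 FPKM in control. Cat, the peroxisomal catalase, was at 38.8 FPKM with resveratrol, 35.0 FPKM in conditioned media and 27.2 FPKM in control.

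**Figure D4:**
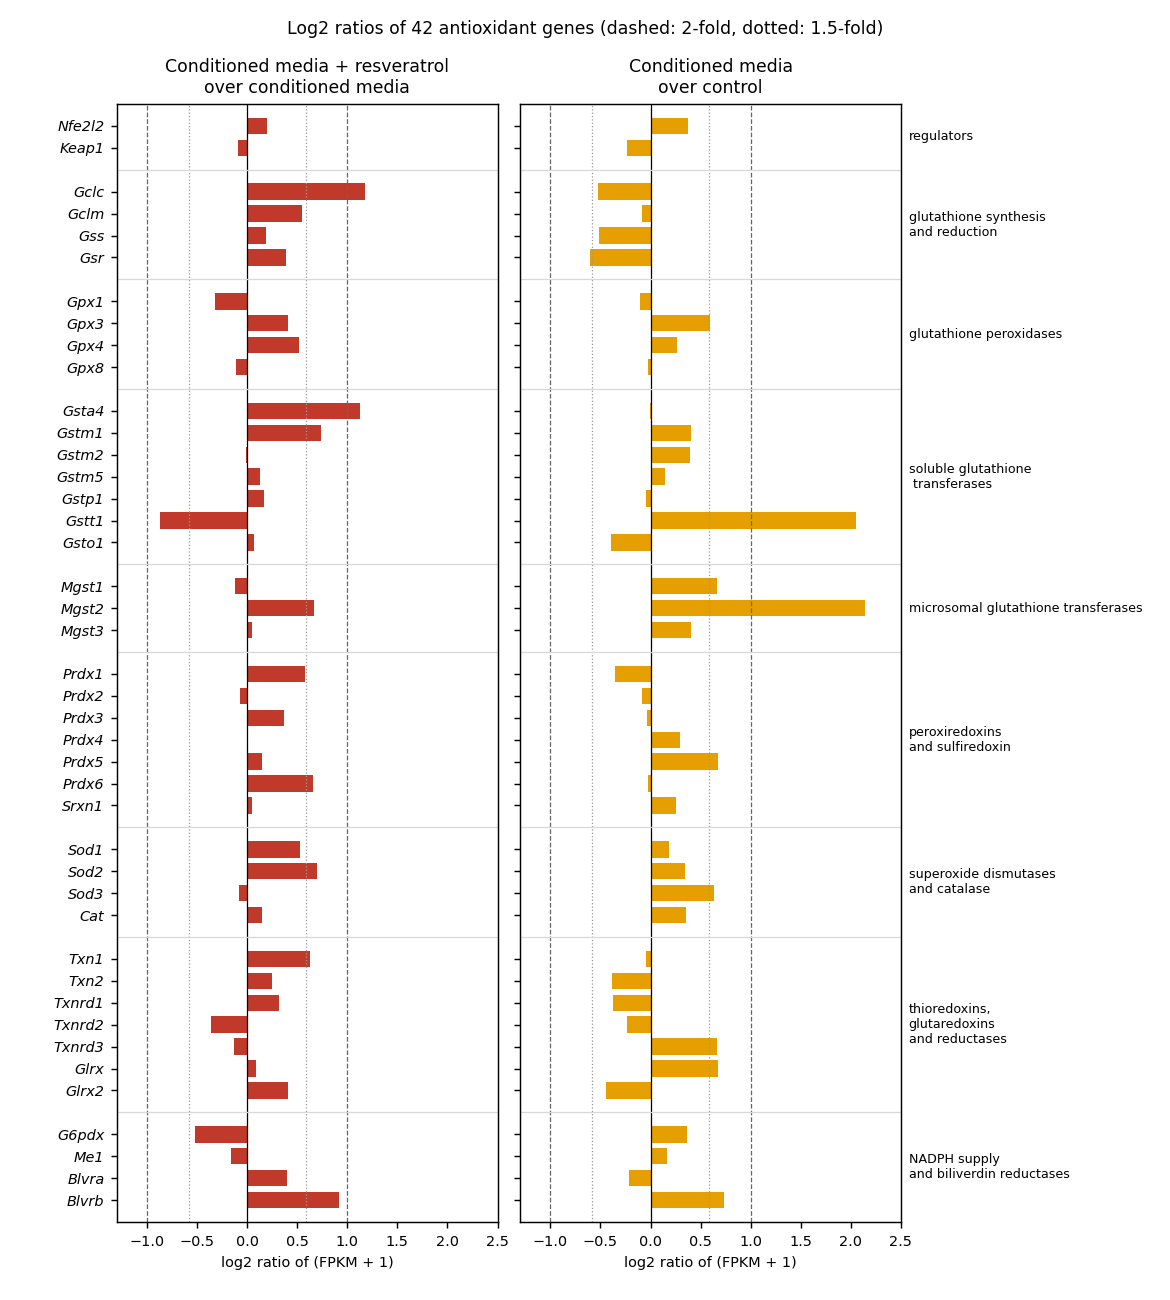
Log2 ratios of FPKM + 1 for the 42 genes, grouped by role, for resveratrol in conditioned media over conditioned media (left) and conditioned media over control (right), with lines at 2-fold and 1.5-fold. The 4 genes of glutathione synthesis and reduction point left in the right panel and right in the left panel, with medians of -0.52 and 0.47.

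In the thioredoxin system, the values divided by compartment only in part. Cytosolic Txnrd1 and mitochondrial Txn2 had like log2 ratios, -0.37 and -0.38 in conditioned media over control. In resveratrol over conditioned media they had 0.32 and 0.25. In conditioned media with resveratrol over control, mitochondrial Txn2, Txnrd2 and Glrx2 had -0.13, -0.60 and -0.034. There, Txn1, Glrx and Txnrd3 had 0.59, 0.76 and 0.53, and Txnrd1 had -0.051. Of these, Txn2, Glrx2 and Txnrd1 turned above 0 under TPM. Txn1, cytosolic thioredoxin, was at 404 FPKM in conditioned media with resveratrol, 260.2 FPKM in conditioned media and 268 FPKM in control, a log2 ratio of 0.63 for resveratrol over conditioned media; its small ratio of conditioned media over control, -0.044, turned above 0 under TPM, also relative to the median of all loci. Txnrd1, its reductase and a textbook NRF2 target, was at 54.0 FPKM with resveratrol, 43.0 FPKM in conditioned media and 56.0 FPKM in control. The reductase was thus lowest in conditioned media and nearly level between resveratrol and control. The mitochondrial thioredoxin Txn2 was at 99.2 FPKM with resveratrol, 83.2 FPKM in conditioned media and 109 FPKM in control. The mitochondrial reductase Txnrd2 was lower in each step, at 3.99 FPKM with resveratrol, 5.41 FPKM in conditioned media and 6.54 FPKM in control.

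Txnrd3, which reduces both thioredoxin and glutathione disulfides, was at 6.60 FPKM in conditioned media with resveratrol, 7.31 FPKM in conditioned media and 4.25 FPKM in control. The glutaredoxins, which use glutathione to reduce protein disulfides, went apart. Cytosolic Glrx was at 64.1 FPKM with resveratrol, 60.1 FPKM in conditioned media and 37.3 FPKM in control, a log2 ratio of 0.67 for conditioned media over control. Mitochondrial Glrx2 was lowest in conditioned media, at 6.87 FPKM with resveratrol, 4.94 FPKM in conditioned media and 7.06 FPKM in control, a log2 ratio of -0.44.

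The NADPH suppliers among the 42 genes were lower with resveratrol than in conditioned media. G6pdx, the first enzyme of the pentose phosphate pathway, was at 25.4 FPKM in conditioned media with resveratrol, 37.0 FPKM in conditioned media and 28.5 FPKM in control. Me1, cytosolic malic enzyme, was at 38.6 FPKM with resveratrol, 43.3 FPKM in conditioned media and 38.4 FPKM in control. Both were highest in conditioned media, and the log2 ratio of G6pdx for resveratrol over conditioned media, -0.53, was the second lowest of the 42 genes after Gstt1. Me1 shares 32.8% of its 50-base words with other genes, and G6pdx overlaps Ikbkg on the opposite strand. Blvra, biliverdin reductase A, was at 19.2 FPKM with resveratrol, 14.4 FPKM in conditioned media and 16.9 FPKM in control, and so differed less than Blvrb.

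Other genes of the pathway were taken from lists assembled from general knowledge. Of 22 other genes listed as NRF2 targets, 2 were 2-fold higher with resveratrol over conditioned media, against 1.53% of all loci. In that comparison 0 were 2-fold lower, against 4.97%, and 16 were above 0, against 52.5%. The median was 0.24, beside 0.025 for all loci. The 2 were the ferritin chains, Ftl1 at 2290.5 FPKM with resveratrol, 1014 FPKM in conditioned media and 919 FPKM in control, and Fth1 at 2235 FPKM with resveratrol, 1061 FPKM in conditioned media and 915 FPKM in control. Ferritin stores iron in a form that does not drive oxidant formation. In conditioned media over control, 1 of the 22 was 2-fold higher and 0 lower, against 1.98% and 0.751% of all loci. The median there was 0.19, beside -0.011. Nqo1, the NADPH quinone reductase, was at 14.6 FPKM in conditioned media with resveratrol, 11.8 FPKM in conditioned media and 9.62 FPKM in control. The position of Nqo1 is given to 6 loci, so its level is uncertain. Hmox1, haem oxygenase, which makes the biliverdin that the Blvr enzymes reduce, was at 82.5 FPKM with resveratrol, 46.6 FPKM in conditioned media and 44.8 FPKM in control. Slc7a11, the cystine importer that feeds glutathione synthesis, was lowest with resveratrol, at 2.88 FPKM, with 6.48 FPKM in conditioned media and 5.49 FPKM in control. Its log2 ratio of resveratrol over conditioned media was -0.95, opposite in sign to that of Gclc. The gene past the rule in conditioned media over control was Ugdh, which makes the sugar donor for glucuronidation, at 175 FPKM with resveratrol, 234 FPKM in conditioned media and 102 FPKM in control.

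Of 12 listed genes of glutathione breakdown and recycling, 9 were kept. In resveratrol over conditioned media 0 passed 2-fold, against 1.53% of all loci higher and 4.97% lower. In conditioned media over control 0 passed it too, against 1.98% and 0.751%. In conditioned media with resveratrol over control, 2 were 2-fold higher, against 3.60% of all loci. These were Hagh, a glyoxalase that releases glutathione, at 35.0 FPKM with resveratrol, 18.5 FPKM in conditioned media and 15.7 FPKM in control, and Esd, which hydrolyses formylglutathione, at 249 FPKM with resveratrol, 124 FPKM in conditioned media and 120.4 FPKM in control. Esd is on the NRF2 target list too. Of 13 other glutathione transferase genes, 6 were kept and 0 passed 2-fold in any comparison. The shares of all loci doing so in 1 direction lay between 0.751% and 5.25%. Among them was Gstt2, of the same class as Gstt1, at 1.43 FPKM with resveratrol, 1.97 FPKM in conditioned media and 0.578 FPKM in control. Its log2 ratio of conditioned media over control was 0.91, short of the rule.

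Of 15 other NADPH sources, Nadk was not found by symbol and 13 were kept. In resveratrol over conditioned media 10 of these had ratios below 0 and 3 above it, against 52.5% of all loci above 0. The median was -0.11, beside 0.025. In conditioned media over control, 1 was 2-fold higher and 0 lower, against 1.98% and 0.751% of all loci. It was the cytosolic folate enzyme Aldh1l1, at 1.37 FPKM with resveratrol, 3.31 FPKM in conditioned media and 0.579 FPKM in control. The mitochondrial folate enzyme Aldh1l2 was at 18.1 FPKM with resveratrol, 58.8 FPKM in conditioned media and 54.2 FPKM in control, and the mitochondrial malic enzyme Me2 at 12.0 FPKM with resveratrol, 24.6 FPKM in conditioned media and 18.5 FPKM in control. Of the list, only Aldh1l2 passed the 2-fold rule in resveratrol over conditioned media, on the lower side, as did 4.97% of all loci. With FPKM + 1, the log2 ratios of Me2 and Aldh1l1 there were -0.98 and -0.86, short of the rule. Of 17 selenoprotein genes and genes of their synthesis, 0 passed 2-fold in resveratrol over conditioned media or in conditioned media over control. At the shares of all loci given above, 0 in a list this short is not particular to it. Sepp1, the selenium carrier selenoprotein P, was at 40.7 FPKM with resveratrol, 20.8 FPKM in conditioned media and 14.0 FPKM in control. It was 2-fold higher in conditioned media with resveratrol over control, as were 3.60% of all loci.

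Of 12 other thiol enzymes and partners, 1 was 2-fold higher and 0 lower in conditioned media over control. Of all loci, 1.98% and 0.751% were. In resveratrol over conditioned media 0 passed 2-fold, against 1.53% of all loci higher and 4.97% lower. The gene higher in conditioned media over control was Txnip, the thioredoxin-binding inhibitor. It was at 299 FPKM in conditioned media with resveratrol, 168 FPKM in conditioned media and 48.4 FPKM in control. Its position is shared with another locus. Msrb3, a methionine sulfoxide reductase whose position is also shared, was higher in control. It was at 20.8 FPKM with resveratrol, 22.2 FPKM in conditioned media and 44.4 FPKM in control. Of 14 genes of oxidant sources, 4 were kept, and 1 was 2-fold higher in conditioned media over control, against 1.98% of all loci. This was the inducible nitric oxide synthase Nos2, at 49.5 FPKM with resveratrol, 94.2 FPKM in conditioned media and 15.7 FPKM in control. Xdh, xanthine dehydrogenase, was at 14.3 FPKM with resveratrol, 12.2 FPKM in conditioned media and 6.41 FPKM in control. Of 14 NRF2 partners and repressors, Mafg was not found by symbol and 12 were kept. Of those, 0 passed 2-fold in any comparison, where between 0.751% and 5.25% of all loci did in 1 direction. The small MAF gene Maff was highest in conditioned media, at 17.8 FPKM with resveratrol, 29.7 FPKM in conditioned media and 15.5 FPKM in control, though its position is shared with other loci.

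The cells carried the markers of myotubes, with the labels naming a myoblast line. Myog was at 596 FPKM in conditioned media with resveratrol, 313 FPKM in conditioned media and 384 FPKM in control, and all 11 myotube markers were kept. Their summed level was 7433 FPKM with resveratrol, 5089 FPKM in conditioned media and 5869 FPKM in control. They thus moved with the resveratrol comparison too, with 9 of 11 ratios over conditioned media above 0, against 52.5% of all loci. Of 6 myoblast and reserve cell markers, 5 were kept and divided with resveratrol over conditioned media. Myf5 and Notch3 were 2-fold lower, at log2 ratios of -1.47 and -1.03, as were 4.97% of all loci. Myod1, Vcam1 and Sdc4 were higher, at 0.85, 0.65 and 0.57. The list summed to 318 FPKM with resveratrol, 229.8 FPKM in conditioned media and 201 FPKM in control. Of 7 fibroblast markers, 4 were kept, and the list summed to 55.6 FPKM with resveratrol, 66.8 FPKM in conditioned media and 39.4 FPKM in control, with Tcf21 listed at 0 in all libraries. Macrophage, endothelial, epithelial and adipocyte markers summed to at most 3.26 FPKM in any library, and Ptprc, Adgre1 and Krt18 were listed at 0 in all of them. What part the shift in muscle cell markers has in the antioxidant values was not tested.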

How the data were processed

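RNA sequencing of 3 C2C12 libraries, 1 per group, was used as deposited, and samples were grouped by their treatment labels. The submitters' processing notes name, in no stated order, Cuffdiff 2.2.1.3, Cufflinks 2.2.1.0, Bowtie, TopHat2 2.1.0, Trim Galore 0.4.3.1 and FastQC 0.69, and the build mm10. The FPKM values, the log2 fold changes without a pseudocount, the test statistic (a score) and the p-values and q-values are the authors', in Cuffdiff's gene table per the file headers. The gene annotation, the use of strand and how libraries were scaled to each other are not stated, so reads of overlapping antisense genes cannot be told apart. Depth is unknown, and no interval could be given. FPKM summed to 2956880 with resveratrol, 2953950 in conditioned media and 3384770 in control, and between 78.4% and 83.0% of each sum lay in loci of 200 bases or less, which TPM rescaling follows.

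Ratios were log2((FPKM + 1)/(FPKM + 1)) for loci with a mean of 1 FPKM or more, computed with Python 3.11.15, numpy 2.4.6 and pandas 2.3.3. The size rule was tested on simulated data. The changes put in were far past the rule and the noise was small, so this checks the code, not these libraries. Starts, which count from 0 in the deposited table, are printed from 1. Words of 50 bases were compared with all GENCODE M21 transcripts on both strands. Every one of the 44 genes is named with its values. From each other list, up to 3 kept genes with the largest absolute ratio per comparison could be named, and Nqo1, Hmox1, Slc7a11 and Txnip by name; genes behind a count are named as well. The genes and lists were chosen with earlier results of these data known. Alternatives covered pseudocounts, filters, TPM, centring, shared loci, summed loci, a 1.5-fold rule and the authors' calls.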

Additional observations from a re-analysis of the deposited data

How the results depend on the processing

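No paired analysis was possible because each group holds 1 library, and leaving out a library leaves no comparison. The 2-fold count of higher genes was 2 in conditioned media over control, 2 in resveratrol over conditioned media and 7 in conditioned media with resveratrol over control. At 1.5-fold it became 9, 8 and 14, with 1 lower gene each, and counting what the authors' deposited table calls gave, in that order, 20 higher and 10 lower, 24 higher and 7 lower, and 26 higher and 10 lower. A pseudocount of 5 gave 0 higher genes in resveratrol over conditioned media, where Gclc and Gsta4 fell short, and 3 in conditioned media with resveratrol over control, namely Mgst2, Blvrb and Gstm1. By construction, a larger pseudocount shrinks ratios of low genes, and so does TPM, whose values are smaller while the same 1 was added. Rescaling to TPM moved the medians over control to 0.32 for conditioned media and 0.51 for conditioned media with resveratrol, the median of all loci moving to 0.14 in each. It changed the sign of 9 and 6 genes there, all short of 2-fold in that comparison; relative to the moved median, 6 and 0 changed sign. Counts and medians under a pseudocount of 0.1, other filters, centring, loci of unshared position and summed loci stayed within 1.5 times or within 0.1. Without replicates or depth, small ratios cannot be told from noise.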
